A study of Mus musculus with 3 samples.

Results

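The solute carrier (SLC) genes described here are the 142 genes with a symbol of the form Slc, family number, letter and member number whose level reached the minimum of 5 in at least 1 of 3 fetal stages. The members were chosen by their mean level over the cells of a stage, in captured RNA molecules per 1000000 (CPM), out of 228 such symbols in a table of 14133 genes. At the same minimum, 10236 of the 14133 genes would be kept. The study sequenced single germ cells that carry the Oct4-EGFP reporter, in which a fluorescent protein is driven from the Pou5f1 (Oct4) gene, and that were isolated by fluorescence from fetal mouse gonads, labelled as ovaries, of the strain C57BL/6. Each stage had 1 library, taken at day 12.5 (E12.5), day 14.5 (E14.5) or day 16.5 (E16.5) of embryonic life. The number of embryos behind a library is not given in the sources used here, and all libraries share the reporter and carry no further allele or treatment in the labels.

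Solute carriers are membrane proteins that move small molecules and ions across the plasma membrane and the membranes of organelles, mostly as exchangers or as transporters coupled to an ion gradient. Most SLC25 members lie in the inner mitochondrial membrane, and SLC7 and SLC38 members carry amino acids. SLC39 and SLC30 members move zinc into and out of the cytosol, and many SLC35 members load nucleotide sugars into the Golgi and the endoplasmic reticulum. Female germ cells divide by mitosis at the earliest of these stages and then enter the prophase of meiosis, and a germ cell form of the ADP/ATP carrier, Slc25a31, is known from meiotic cells of the testis.

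After clustering without any Slc gene, 4678 of 4703 cells at E12.5, 8903 of 9069 at E14.5 and 5312 of 5334 at E16.5 were germ-cell-like. Their summed unique molecular identifiers (UMIs, each marking 1 captured RNA molecule) came to 125161525, 102506950 and 68980723, and the median per cell was 26710.5, 11002 and 12632. The germ cell genes Dazl (455, 1145 and 934 CPM at the 3 stages) and Ddx4 (123, 209 and 168 CPM) were present in each library, while Pou5f1, on which the sorted reporter rests, was at 681, 161 and 18.9 CPM. At E12.5, 666 germ-cell-like cells (14.2%) held a UMI of a Y-linked gene, against 0 cells at E14.5 (which allows up to 0.0337%) and 0 at E16.5 (up to 0.0565%), although the library is labelled female; the stage counts and the named ratios were also computed without these cells and the rest of the cluster that held most of them (721 cells in all). Summed over their marker lists, pregranulosa genes stood at 10.5, 23.1 and 17.7 CPM in the germ-cell-like cells, endothelial genes at 87.5, 25.8 and 15.9 CPM, erythroid genes at 0.304, 11.9 and 76.7 CPM, and blood and immune genes at 6.20, 1.13 and 48.8 CPM. The part of these marker levels and of the unequal depth in the results was not tested beyond the values given; with each cell thinned to 5000 UMIs, no called member changed its sign. Of 18971 barcodes, 173 occurred in more than 1 library.

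Levels below are the UMIs of a gene summed over the germ-cell-like cells of a stage, scaled to the total of their UMIs (CPM). The kit reads the 3' end, so CPM is per molecule and is not divided by gene length. With 1 library per stage no test of a stage difference was possible, stage and library cannot be told apart, and no p-value is given. Intervals are exact Poisson intervals at 95% and cover counting error alone. They were at most 5.21% either side of any level of at least 20 CPM. A member is counted as higher or lower when the ratio of its levels was at least 2-fold.

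Between E12.5 and E14.5, 45 members were at least 2-fold higher (31.7%, against 27.1% of all genes kept at the same minimum) and 27 were at least 2-fold lower (19.0%, against 14.8%). From E14.5 to E16.5, 16 were higher (11.3%, against 12.1%) and 29 lower (20.4%, against 15.1%). Over the whole span, from E12.5 to E16.5, 49 were higher (34.5%, against 33.6%) and 37 lower (26.1%, against 22.0%). The shares of the members thus lay near those of all genes. The split depended on scaling: with median-of-ratios factors the first step gave 35 higher and 35 lower and the whole span 42 and 46, because that scaling shifts the median log2 ratio of all genes from 0.23 to -0.10 in the first step and from 0.31 to -0.06 over the span. With these factors, 18 members moved between called and within 2-fold in the first step, 1 in the second and 16 over the span. A scaling shifts all members alike, and these shifts are too small to turn the sign of a 2-fold call.

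Of the 142 members, 79 reached the minimum in all 3 stages, 35 in 2 and 28 in 1. The members of the last kinds had to differ between stages to be kept, so their differences are a description of the choice. Among the 79, 20 were higher (25.3%) and 13 lower (16.5%) at E16.5 than at E12.5. The shares over all genes that reached the minimum in all 3 stages were not computed, so no background stands beside these counts. The summed level of all members was 5468 CPM at E12.5, 3481 CPM at E14.5 and 3356 CPM at E16.5, while the median member stood at 8.68, 10.2 and 10.8 CPM. Mitochondrial carriers alone held 3861 of the 5468 CPM at E12.5. Members just above the minimum, by the mean used for the choice, were Slc37a1 (5.03), Slc7a9 (5.19) and Slc19a2 (5.28), and those just below it were Slc43a2 (4.94), Slc22a15 (4.90) and Slc17a5 (4.81).

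**Figure D1:**
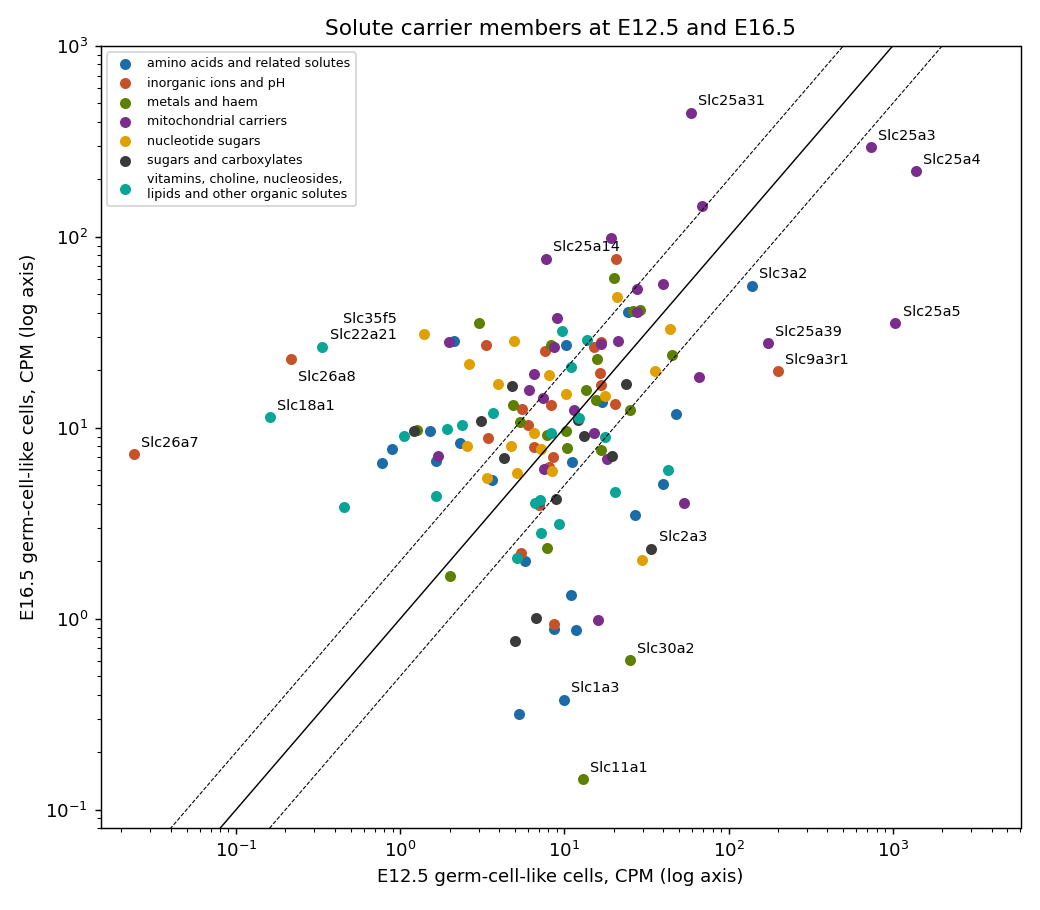
Level of each of the 142 members in germ-cell-like cells at E12.5 (horizontal, CPM, log axis) and at E16.5 (vertical, CPM, log axis), coloured by substrate class, 1 point per gene. Slc25a4 and Slc25a5 lie far right at 1388 and 1037 CPM at E12.5, and Slc26a8, Slc22a21 and Slc18a1 lie in the upper left with under 1 CPM at E12.5. Slc26a7, with 0 UMIs at E12.5, is drawn at 3 counts. The solid line marks equal levels and the dashed lines 2-fold.

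The largest shift in molecules was among the ADP/ATP carriers, which exchange ATP made in mitochondria for cytosolic ADP. The genome places Slc25a4 at chromosome 8 from 46206797 to 46211284, Slc25a5 at X from 36795651 to 36798807 and Slc25a31 at 3 from 40708855 to 40726096 (mm10, also called GRCm38). The stretches just before the start sites of the pair that moved furthest apart are shown here from RefSeq (GRCm38.p6), each 230 bases long and ending 21 bases before the annotated start, on the plus strand. Capitals mark the match to a searched motif, CACGTG in the first and TCCCGC in the second.
Slc25a31 (chr3:40708621-40708850): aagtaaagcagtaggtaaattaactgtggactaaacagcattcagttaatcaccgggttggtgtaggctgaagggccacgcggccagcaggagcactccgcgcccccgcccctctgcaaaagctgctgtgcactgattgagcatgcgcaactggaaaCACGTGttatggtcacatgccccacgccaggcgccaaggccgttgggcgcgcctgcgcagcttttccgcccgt
Slc25a5 (chrX:36795347-36795576): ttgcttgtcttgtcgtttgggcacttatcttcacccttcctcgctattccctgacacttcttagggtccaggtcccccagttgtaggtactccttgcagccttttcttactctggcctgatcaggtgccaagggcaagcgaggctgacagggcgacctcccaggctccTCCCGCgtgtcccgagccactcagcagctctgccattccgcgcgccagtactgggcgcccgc

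Slc25a4, the form known from heart and muscle, stood at 1388 CPM at E12.5, 324 CPM at E14.5 and 222 CPM at E16.5. Slc25a5, the form known from dividing cells, stood at 1037, 180 and 35.4 CPM. Both were thus highest at E12.5 and lowest at E16.5, and Slc25a5 was 29.3-fold lower over the span (28.1 to 30.5) against 6.26-fold for Slc25a4 (6.15 to 6.36). Slc25a31, the germ cell form, ran the other way, with 59.1 CPM at E12.5 (57.8 to 60.5), 362 CPM at E14.5 (358 to 366) and 447 CPM at E16.5 (442 to 452). Its level was 6.12-fold higher in the first step and 1.24-fold higher in the second. Slc25a5 has a processed copy in the annotation, Slc25a5-ps, and how reads shared with near-identical copies were counted is not given in the sources used here, so the level of Slc25a5 is uncertain to that extent.

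Together the 3 carriers held 2484 CPM at E12.5, 866 CPM at E14.5 and 704 CPM at E16.5. Within that sum, Slc25a31 made up 2.38% of the molecules at E12.5 (2.33 to 2.44), 41.8% at E14.5 (41.5 to 42.1) and 63.5% at E16.5 (63.0 to 63.9). The most abundant ADP/ATP carrier RNA was therefore Slc25a4 at E12.5 and Slc25a31 at E14.5 and E16.5, with the lead at E14.5 being 362 against 324 CPM. Thinned to 5000 UMIs per cell, Slc25a31 was found in 24.3%, 79.3% and 87.7% of germ-cell-like cells (67.7%, 94.4% and 98.5% before thinning), and Slc25a5 in 98.7%, 47.5% and 13.6%. In the pregranulosa-like cells, the supporting cells in which Slc25a31 should be absent, a UMI of it was found in 4 of 25 cells at E12.5 (16.0%), 41 of 166 at E14.5 (24.7%) and 14 of 22 at E16.5 (63.6%), at median depths of 13397, 8491.5 and 12462 UMIs. The germ cell shares before thinning were above these at each stage. The pregranulosa-like cluster also held germ cell RNA, with 25 of 30 germ cell markers found in at least 10% of its cells.

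**Figure D2:**
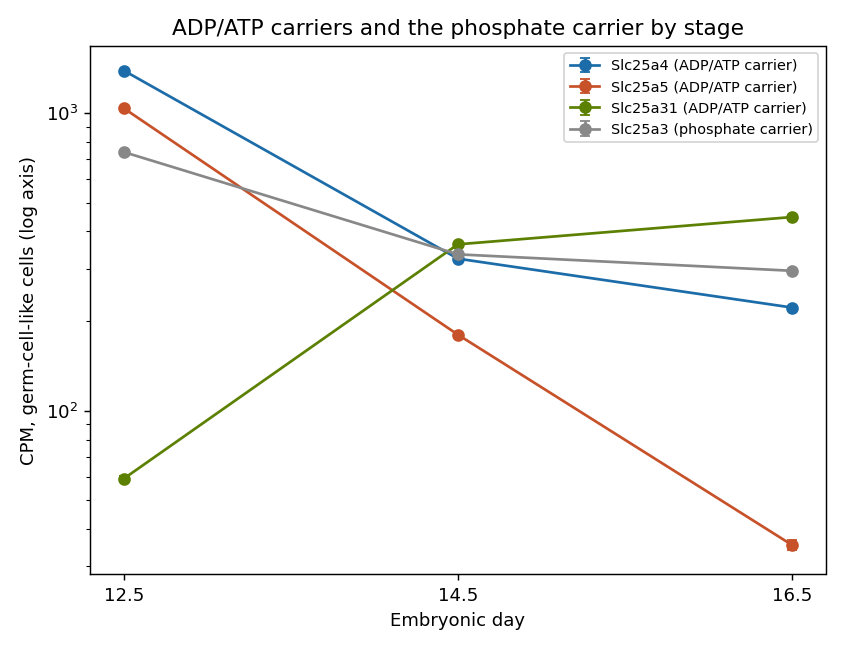
Level of the 3 ADP/ATP carrier genes and of the phosphate carrier Slc25a3 (vertical, CPM in germ-cell-like cells, log axis) at each embryonic day (horizontal). Points are the summed level of 1 library and bars are exact 95% Poisson intervals, mostly smaller than the points. Slc25a31 stands at 59.1 CPM at E12.5 and 447 CPM at E16.5, and Slc25a5 at 1037 and 35.4 CPM.

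Several other abundant mitochondrial carriers were lower at the later stages, as Slc25a4 was. Slc25a3, which imports phosphate for ATP synthesis, stood at 739, 335 and 295 CPM, below Slc25a4 and Slc25a5 at E12.5 and between Slc25a31 and Slc25a4 at the later stages. Slc25a39, tied to glutathione import, was at 173, 86.2 and 27.8 CPM, a 6.21-fold difference over the span. Slc25a1, the citrate exporter, was at 65.9, 42.1 and 18.4 CPM. Slc25a13, an aspartate/glutamate exchanger of the malate-aspartate shuttle, was at 53.8, 7.25 and 4.06 CPM, 13.3-fold lower at E16.5 than at E12.5. These carriers were each lowest at E16.5.

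Among the 28 SLC25 genes kept, 10 were higher (35.7%, against 33.6% of all genes) and 8 lower (28.6%, against 22.0%) at E16.5 than at E12.5, a balance that turned to 8 and 10 with median-of-ratios scaling and 9 and 10 with trimmed-mean (TMM) scaling. Their summed level was 3861 CPM at E12.5, 1868 CPM at E14.5 and 1767 CPM at E16.5. Slc25a33, a pyrimidine nucleotide carrier, was at 68.9, 96.3 and 146 CPM. Slc25a14, an uncoupling protein relative on chromosome X, was at 7.70, 38.6 and 77.0 CPM, 10.0-fold higher over the span. Slc25a51, which brings NAD into mitochondria, was level at 27.6 CPM at E12.5 and E14.5 and at 53.2 CPM at E16.5. Slc25a25 (9.08, 41.7 and 37.7 CPM) and Slc25a23 (8.60, 28.9 and 26.6 CPM), calcium-regulated carriers of ATP-magnesium and phosphate, were both higher from E14.5 on. Slc25a46, an outer membrane protein of mitochondrial dynamics, was lowest at E14.5 (11.5, 5.46 and 12.4 CPM).

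A set of 10 carriers for carnitine, fatty acids, acetyl-CoA and CoA, put together after their values had been seen and therefore no independent evidence, held 8 higher and 0 lower members in the first step, where 27.1% and 14.8% of all genes were called. Over the span it held 9 higher and 0 lower (8 and 0 with median-of-ratios scaling), against 33.6% and 22.0%. Of the set, Slc22a21, Slc22a5, Slc25a42, Slc33a1 and Slc27a2 were under the minimum of 5 at E12.5 and were kept through later stages alone. Their higher levels are therefore a description of the choice, and the counts of the set are not comparable with the shares of all genes. Slc22a21, a carnitine transporter next to its relative Slc22a5, was at 0.336 CPM at E12.5, 20.5 CPM at E14.5 and 26.6 CPM at E16.5. That is 61.2-fold higher in the first step (45.1 to 85.2). Slc22a5, the main plasma membrane carnitine transporter, was at 1.93, 9.37 and 9.86 CPM, and because these genes are close relatives the division of reads between them is uncertain. Slc25a42, which brings CoA into mitochondria, was at 1.97, 30.3 and 28.3 CPM, and Slc25a17, a peroxisomal carrier of CoA and other cofactors, at 19.2, 80.9 and 99.2 CPM. Slc25a20, the carnitine-acylcarnitine exchanger of the inner membrane, was at 6.56, 10.4 and 19.2 CPM, and Slc33a1, which brings acetyl-CoA into the endoplasmic reticulum, at 2.38, 9.41 and 10.4 CPM.

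The fatty acid transport proteins of the same set did not share a course. Slc27a4 was at 9.68, 39.7 and 32.1 CPM and Slc27a1 at 13.7, 24.4 and 29.0 CPM. Slc27a3 was at 12.2, 35.7 and 11.2 CPM and Slc27a2 at 1.65, 9.41 and 4.39 CPM, so both were highest at E14.5. Slc27a3 was the member of the set within 2-fold over the span.

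Among the 7 substrate classes, amino acid carriers had the largest share of lower members in the first step (47.6%, against 14.8% of all genes). Of 21 genes in the class, 8 were higher (38.1%, against 27.1% of all genes) and 10 lower at E14.5 than at E12.5. With median-of-ratios scaling the counts were 5 and 12. The counts and sums of the class include Slc7a6os, which is no carrier. Over the span 7 were higher (33.3%, against 33.6%) and 10 lower (47.6%, against 22.0%), with summed levels of 381, 229 and 243 CPM. Slc3a2, the CD98 heavy chain that brings several exchangers to the cell surface, was at 138, 45.9 and 55.6 CPM. Its partner Slc7a5, which imports large neutral amino acids, was at 47.7, 14.0 and 11.8 CPM. Heavy chain and this light chain were thus 3.01-fold and 3.41-fold lower in the first step.

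The other light chains of Slc3a2 differed from Slc7a5 and from each other. Slc7a6, an exchanger of cationic for neutral amino acids, was at 10.3, 23.6 and 27.2 CPM. Slc7a7, which does the same exchange, was at 10.9, 0.985 and 1.33 CPM. At E12.5 it stood at 7.56 CPM without the 721 cells that held a Y-linked UMI or lay in their cluster, and at 28.2 CPM in those cells, where Slc7a6 was at 10.2 and 10.9 CPM. Slc7a6 was thus above Slc7a7 in the former cells and below it in the latter, and far above it from E14.5 on. Slc7a8 was below the minimum at each stage, with a highest mean of 0.569, and is no member.

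The sodium-coupled neutral amino acid transporters Slc38a4 (40.0, 9.28 and 5.06 CPM) and Slc38a1 (26.9, 9.79 and 3.48 CPM) were lowest at E16.5. In the same family, Slc38a9, a lysosomal arginine-responsive protein upstream of mTORC1, was at 2.14, 21.1 and 28.6 CPM, and Slc38a10 at 24.4, 39.7 and 40.6 CPM. Of the 7 SLC38 genes kept, 2 were higher and 3 lower at E16.5 than at E12.5. Those higher were Slc38a9 and Slc38a6, and those lower were Slc38a4, Slc38a1 and Slc38a7. Slc38a10 stayed within 2-fold. Slc6a6, the taurine transporter, was 13.4-fold lower over the span (11.7, 1.42 and 0.870 CPM). Slc1a3, a glutamate transporter, was 63.9-fold lower in the first step (9.98, 0.156 and 0.377 CPM). Slc6a17, a vesicular amino acid transporter, was highest at E14.5 with 3.62, 14.7 and 5.36 CPM, as was the creatine transporter Slc6a8 with 2.33, 15.9 and 8.34 CPM. Slc7a6os, which matches the symbol rule by name alone and is no carrier, was at 17.0, 4.87 and 13.7 CPM.

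Sugar and carboxylate carriers were a small class of 12, of which 3 were higher (25.0%, against 33.6% of all genes) and 5 lower (41.7%, against 22.0%) at E16.5 than at E12.5, with sums of 136, 126 and 96.6 CPM. Slc2a3 (GLUT3), a high-affinity glucose transporter, was at 33.9 CPM at E12.5, 10.0 CPM at E14.5 and 2.33 CPM at E16.5, 14.5-fold lower over the span (12.4 to 17.1). Slc2a1 (GLUT1), the broadly expressed glucose transporter, was at 19.5, 8.59 and 7.15 CPM, 2.73-fold lower. On the CPM scale Slc2a3 was above Slc2a1 at E12.5 and E14.5 and below it at E16.5. In the 721 E12.5 cells that held a Y-linked UMI or lay in their cluster, Slc2a3 was below Slc2a1 (20.6 against 23.4 CPM). In the other E12.5 cells Slc2a3 was at 36.4 CPM and Slc2a1 at 18.8 CPM. Slc2a8, an intracellular sugar transporter, was highest at E14.5 (8.91, 17.1 and 4.25 CPM), as was Slc16a1, the monocarboxylate transporter for lactate and pyruvate (23.7, 31.4 and 16.9 CPM). Slc16a3, the lactate exporter of glycolytic cells, stayed below the minimum, with 3.25, 2.01 and 0.203 CPM. Slc5a3, a myo-inositol transporter at 3.11, 6.48 and 10.9 CPM, lies within Mrps6 on the same strand (53.2, 62.0 and 89.2 CPM), so their reads may not be separable.

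Zinc, copper and iron carriers made up 21 members with sums of 306, 374 and 367 CPM, of which 5 were higher and 5 lower over the span (23.8% each, against 33.6% and 22.0% of all genes). Slc39a6, a zinc importer, was at 20.1, 47.8 and 60.9 CPM and was the most abundant member of the class at E16.5. Slc39a7, which releases zinc from the endoplasmic reticulum, was at 45.1, 28.0 and 24.2 CPM, and Slc39a10, an importer of the plasma membrane, at 25.1, 29.3 and 12.4 CPM. Of the 10 SLC39 genes, 5 were higher and 1 lower in the first step, but 3 and 3 with median-of-ratios scaling. The zinc exporters differed more: Slc30a4 was at 3.03, 34.3 and 35.4 CPM, while Slc30a2 was at 25.0, 2.88 and 0.609 CPM, 41.1-fold lower over the span (30.3 to 57.1). Slc30a7, which loads the Golgi, was at 5.39, 5.08 and 10.7 CPM.

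Slc31a1, the copper importer, was at 26.1, 51.6 and 40.8 CPM, but it overlaps Cdc26 on the opposite strand (72.5, 21.7 and 13.0 CPM), and whether counting used the strand is not given in the sources used here. In all, 26 of the 142 members overlap another gene of the table, 4 of them on the same strand. Slc11a1, a divalent metal transporter known from phagosomes of macrophages, was at 12.9, 1.04 and 0.145 CPM, 89.3-fold lower over the span (48.4 to 187). The blood and immune markers in the same cells stood at 6.20, 1.13 and 48.8 CPM, so they were highest at E16.5, where Slc11a1 was lowest, and their part in the E12.5 level was not tested.

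The class of inorganic ion and proton carriers, set by family number, also held 21 members, with sums of 383, 280 and 357 CPM. Over the span 7 were higher (33.3%, against 33.6% of all genes) and 3 lower (14.3%, against 22.0%), or 5 and 4 with median-of-ratios or TMM scaling. These sums and counts include Slc9a3r1, Slc9a3r2 and Slc4a1ap, which are no carriers. Slc9a3r1 alone held 199 of the 383 CPM at E12.5 and 36.5 of the 280 CPM at E14.5. The most abundant, Slc9a3r1 (NHERF1), is an adaptor protein that anchors exchangers and no carrier; it was at 199, 36.5 and 19.8 CPM, 10.0-fold lower over the span. Its relative Slc9a3r2 was at 20.4, 28.3 and 13.4 CPM. Slc4a1ap, a further member by name alone, was at 20.5, 49.2 and 76.5 CPM. Among the carriers proper were Slc20a1, a phosphate importer (16.7, 14.4 and 28.3 CPM), the Golgi exchanger Slc9a8 (15.1, 14.6 and 26.6 CPM) and the bicarbonate transporter Slc4a7 (7.64, 14.0 and 25.3 CPM). Each of these 3 was highest at E16.5.

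The SLC26 anion exchangers Slc26a8 and Slc26a7 were nearly absent at E12.5. Slc26a8, known from the testis and sperm, was at 0.216 CPM at E12.5, 5.15 CPM at E14.5 and 22.9 CPM at E16.5, 106-fold higher over the span (72.6 to 162). Slc26a7 had 0 UMIs at E12.5, 0.761 CPM at E14.5 and 7.31 CPM at E16.5, at least 305-fold higher over the span when 3 counts are set as the floor of the E12.5 cells together. Both passed the minimum through the later stages alone.

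The nucleotide sugar class was set by the family number SLC35 alone, and not all of its 18 members carry nucleotide sugars. Of the 18, 8 were higher (44.4%, against 27.1% of all genes) and 1 lower (5.56%, against 14.8%) at E14.5 than at E12.5, or 6 and 2 with median-of-ratios scaling. Over the span 7 were higher (38.9%, against 33.6%) and 1 lower (5.56%, against 22.0%), or 5 and 2 with that scaling, and the sums were 217, 293 and 300 CPM. Slc35c2, tied to the fucosylation of Notch, was at 20.9, 58.5 and 48.2 CPM. Slc35a2, the UDP-galactose transporter on chromosome X, was at 2.64, 8.60 and 21.7 CPM. Slc35b1, an ATP/ADP exchanger of the endoplasmic reticulum, was at 43.9, 22.0 and 32.8 CPM. Slc35b2, which carries the sulfate donor PAPS into the Golgi, was highest at E14.5 (17.7, 41.1 and 14.7 CPM). The relatives Slc35f5 and Slc35f2 ran in opposite directions, with 1.40, 36.2 and 31.1 CPM for Slc35f5 and 29.8, 7.02 and 2.02 CPM for Slc35f2.

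The remaining class, carriers of vitamins, choline, nucleosides, lipids and other organic solutes, had 10 higher and 0 lower of 21 members in the first step (47.6% and 0%, against 27.1% and 14.8% of all genes; 10 and 3 with median-of-ratios scaling). In the second step 1 was higher (4.76%, against 12.1%) and 7 lower (33.3%, against 15.1%), with sums of 183, 312 and 226 CPM. Slc29a1, which equilibrates nucleosides across the plasma membrane, was at 43.0, 23.7 and 6.03 CPM. Slc22a18, an imprinted gene for an organic cation transporter, was at 20.3, 26.4 and 4.61 CPM. Slc46a1, the proton-coupled folate transporter, was at 1.05, 7.68 and 9.09 CPM, and Slc18a1, a vesicular monoamine transporter, at 0.160, 1.11 and 11.4 CPM. Slc22a17, a receptor-like member, was highest at E14.5 (0.455, 13.7 and 3.86 CPM). Slc10a3 was at 3.70, 20.6 and 11.9 CPM and lies on the same strand as Ubl4a (149, 155 and 74.5 CPM), which it overlaps.

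**Figure D3:**
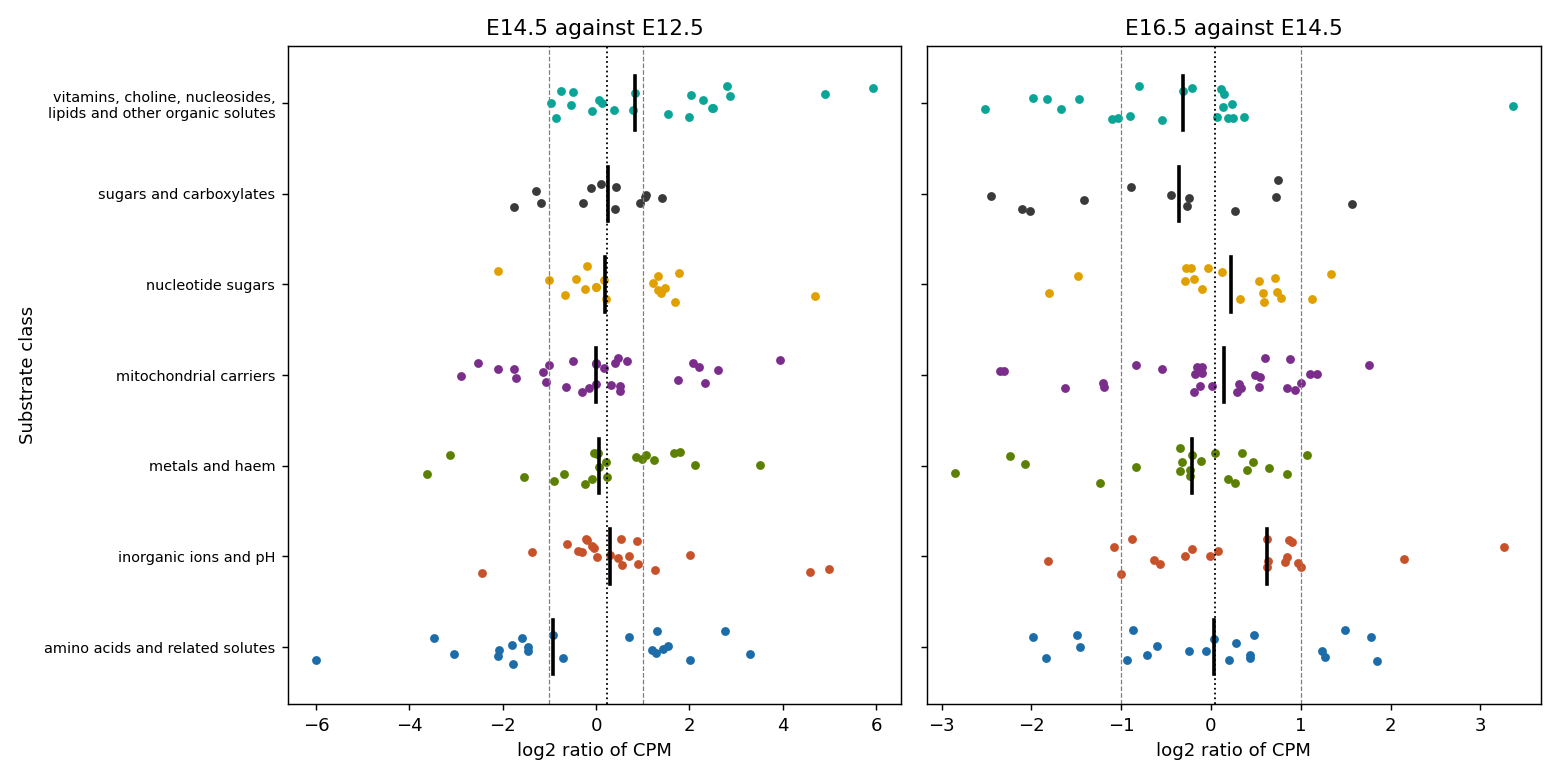
Log2 ratio of CPM (horizontal) of each member by substrate class (vertical), with E14.5 against E12.5 in the left panel and E16.5 against E14.5 in the right and 1 point per gene. Black bars are class medians, the dotted line is the median of all genes, and dashed lines mark 2-fold. Slc26a7 is drawn at its bound of 3 counts in the left panel. Amino acid carriers have their median at -0.93 in the first step, and carriers of vitamins and other organic solutes at 0.83.

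Across the classes, the median log2 ratios in the first step ran from -0.93 for amino acid carriers to 0.83 for vitamins and other organic solutes, beside 0.23 for all genes. Median-of-ratios scaling lowers each by about the same amount, which takes the medians of the ion (0.29 to -0.04), metal (0.07 to -0.25), nucleotide sugar (0.19 to -0.14) and sugar classes (0.25 to -0.08) below 0, so no direction is given for these 4 classes in that step. Over the span, the metal class changed sign in the same way (0.23 to -0.14). The stage of highest level was E12.5 for 48 members (33.8%, against 34.5% of all genes kept), E14.5 for 33 (23.2%, against 22.2%) and E16.5 for 61 (43.0%, against 43.4%). By step, 9 members were higher in both steps (6.34%, against 6.14% of all genes kept) and 12 lower in both (8.45%, against 5.66%). A further 6 were higher and then lower (4.23%, against 2.54%). Slc7a6os, Slc1a3 and Slc25a46 were the 3 lower and then higher (2.11%, against 1.25%), and 55 stayed within 2-fold in both (38.7%, against 46.6%).

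Chromosome X holds 7 members, of which 6 were higher and 1, Slc25a5, was lower at E16.5 than at E12.5. Of all 379 chromosome X genes at the minimum, 44.9% were higher and 20.1% lower. Slc35a2, named above, was at least 2-fold higher in both steps. The X-linked Slc25a5 was thus the exception among the members on its chromosome.

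Cells of the same library also differed in carrier levels. For members of at least 20 CPM in a stage, the largest and smallest level over the germ-cell-like clusters of at least 200 cells were compared. A ratio of at least 2-fold was found for 3 of 34 members at E12.5 (8.82%, against 1.28% of all genes at that level), 27 of 44 at E14.5 (61.4%, against 31.2%) and 9 of 42 at E16.5 (21.4%, against 11.1%). Cells of 1 library are no replicates, so these shares are a description of these libraries.

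The E14.5 cells fell into a cluster led by Sp5, Dlx3 and Cdh15 (3354 cells), a cluster led by Stra8 and Msx1 (2618 cells) and a cluster led by Tppp and Fgf11 (2660 cells), with medians of 12838.5, 11064 and 9265.5 UMIs. Stra8 is the switch gene of meiotic entry. Of the 27 members, 15 were highest in the Tppp cluster and lowest in the Sp5 cluster, 11 the reverse, and Slc35b2 was highest in the Stra8 cluster. Of the 15, 14 reached a 2-fold higher level in the E16.5 library than in the E12.5 library, neither of which holds the E14.5 cells. Of the 11, 7 were at least 2-fold lower in that comparison. The exception among the 11 was Slc25a23, which was higher over the span. Of all genes kept, 33.6% were higher and 22.0% lower over the span, but the shares among genes with the same cluster order were not computed. These counts are therefore a description and do not set the members apart from other genes.

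Slc9a3r1 had the largest ratio, with 66.4 CPM in the Sp5 cluster, 17.5 CPM in the Stra8 cluster and 6.65 CPM in the Tppp cluster. Slc25a5 followed the same order at 285, 133 and 53.3 CPM, as did Slc25a39 at 133, 65.6 and 31.1 CPM and Slc29a1 at 35.0, 21.1 and 7.74 CPM. Slc22a21 ran the other way at 6.21, 23.6 and 40.8 CPM, with Slc25a42 at 11.2, 31.8 and 59.3 CPM. Slc25a31 was at 218, 421 and 523 CPM and Slc25a4 at 458, 276 and 145 CPM. In the Sp5 cluster Slc25a4 was thus the more abundant of the pair, and in the other clusters Slc25a31 was.

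**Figure D4:**
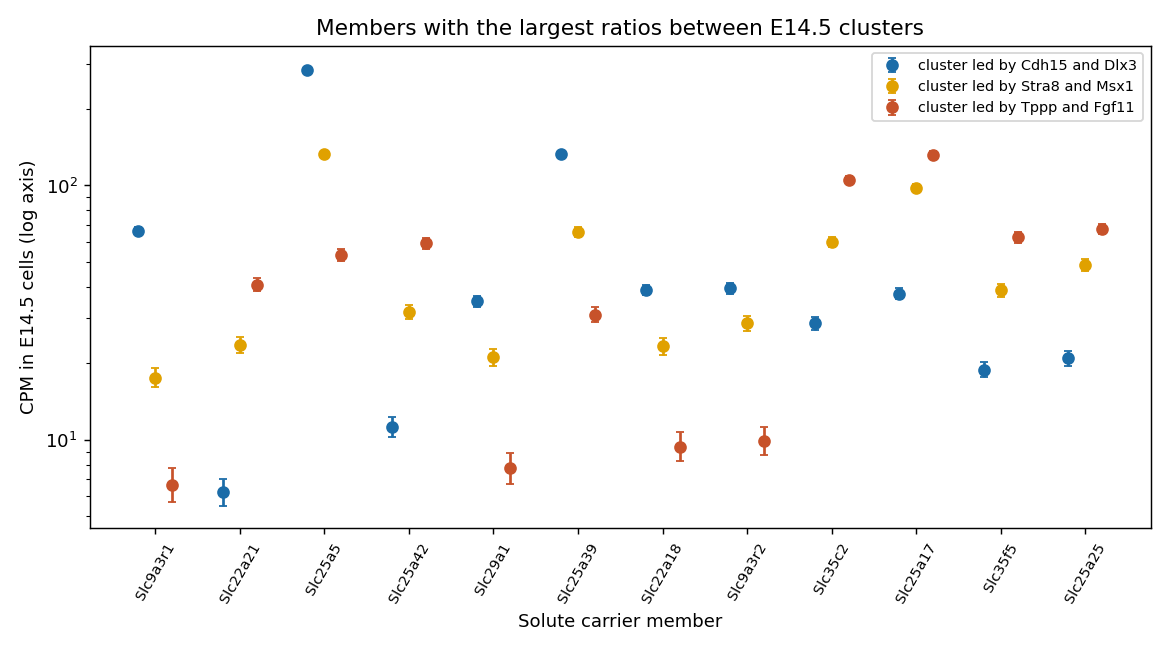
Level (vertical, CPM, log axis) of the members with the largest ratios between E14.5 clusters (horizontal, gene) in the 3 clusters of at least 200 cells, with exact 95% Poisson intervals as bars. Slc9a3r1 spans 66.4 to 6.65 CPM and Slc22a21 spans 6.21 to 40.8 CPM, with the Stra8 cluster between the others for both.

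At E16.5 the cluster led by Pcdh17 and Prdm9 (2378 cells) and that led by Ablim1 and Myom3 (2537 cells) had nearly the same median depth, 12544.5 and 12593 UMIs. Prdm9 sets the places of meiotic recombination. Of the 9 members with a 2-fold ratio, 7 were highest in the Prdm9 cluster, with Slc25a42 at 48.0 against 8.73 CPM, Slc25a25 at 61.3 against 13.2 CPM and Slc22a21 at 43.0 against 11.4 CPM. Slc7a6 (41.3 against 14.1 CPM) and Slc35c2 (67.9 against 28.0 CPM) were likewise higher there. Slc25a4 (136 against 288 CPM) and Slc25a23 (14.1 against 38.2 CPM) were highest in the Ablim1 cluster. Slc25a31, at 490 and 404 CPM, differed by 1.21-fold.

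At E12.5 a cluster led by Lefty2, Eif2s3y and Lefty1 (634 cells), in which 91.3% of cells held a Y-linked UMI, stood apart from the main cluster of 3967 cells. Slc22a18 was at 23.4 CPM in the main cluster and 2.22 CPM in the Lefty cluster, a 10.5-fold ratio. Slc29a1 was at 36.1 and 84.9 CPM, and Slc9a3r2 at 22.0 and 10.6 CPM. Leaving out the 721 cells that lay in this cluster or held a Y-linked UMI moved the E12.5 level of Slc22a18 from 20.3 to 23.5 CPM and that of Slc29a1 from 43.0 to 35.8 CPM. The member counts without these 721 cells were 44 higher and 27 lower in the first step and 50 and 38 over the span.

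The pregranulosa-like cells of the 3 libraries together expressed 15 of the 142 members at least 2-fold above the highest germ cell stage (10.6%, against 9.11% of all genes kept at the same minimum). Slc50a1, a sugar transporter, was at 49.5 CPM there (40.7 to 59.5), 7.39-fold above its highest germ cell level, and Slc35a1, the CMP-sialic acid transporter, at 41.1 CPM (33.2 to 50.3), 5.30-fold above. Slc38a2, a stress-responsive amino acid transporter, was at 54.3 CPM (45.2 to 64.8), and Slc25a11, the oxoglutarate carrier, at 122 CPM (108 to 138). These values come from few cells, and the cells of the 3 stages were summed. The same cells also held germ cell RNA, as given above.

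Genes that work beside the members gave counts of their own. Of 22 kept genes of amino acid supply and its control by the transcription factor ATF4, 15 were lower and 2 higher at E16.5 than at E12.5, against 22.0% and 33.6% of all genes. Examples are Asns, which makes asparagine (196, 72.1 and 21.7 CPM), Eif4ebp1, a brake on translation (323, 60.5 and 22.7 CPM), and the transaminase Got1 (41.7, 3.08 and 1.35 CPM). Of 15 metal-handling genes, 3 were higher and 7 lower, with the zinc-binding metallothioneins Mt1 at 178, 6.35 and 2.96 CPM and Mt2 at 390, 24.7 and 13.6 CPM. Of 29 carriers named outside the Slc scheme, 9 were higher (31.0%) and 6 lower (20.7%), near the 33.6% and 22.0% of all genes. Among them, the lysosomal carrier Spns1 was at 72.4, 21.7 and 3.74 CPM and the phosphate exporter Xpr1 at 7.73, 46.8 and 60.9 CPM. The mitochondrial pyruvate carrier subunit Mpc1 was at 169, 147 and 214 CPM and Mpc2 at 52.0, 202 and 217 CPM, which left the partners nearly equal at E16.5. Of 15 partner and pump genes, Slc9a3r1 counted again among them, 3 were higher and 4 lower, among them Emb, a chaperone of monocarboxylate transporters (101, 61.7 and 11.0 CPM).

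Promoter windows of the same 230 bases were matched for 113 of the 142 members. The E-box CACGTG, on both strands, was found in 18 of them (15.9%), each gene counted once over its windows. The share was 6.11% of all 27025 RefSeq genes and 8.61% of the 10543 matched genes of the table. These 10543 genes were taken without the level minimum that the members passed. Shares among genes at the minimum were not computed, so no background of like level stands beside the motif counts. TCCCGC, part of the E2F site, was found in 38 (33.6%), against 17.1% and 31.3%. CNCCTCAG, the site reported for STRA8 with MEIOSIN, was found in 10 (8.85%), against 6.74% and 7.99%, and the amino acid response site TGATGNAA in 2 (1.77%), against 3.70% and 2.10%. In the windows printed above, CACGTG begins 93 bases before the start of Slc25a31 and TCCCGC 82 bases before that of Slc25a5. A match is a description of the letters and not of binding.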

How the data were processed

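Single-cell 3' RNA was captured with a 10x Genomics version 2 kit, per the labels' protocols, and Cell Ranger 2.0.0, FastQC and build mm10 were used, per the submitters' processing notes. The authors deposited natural log values, ln(1 + UMIs x 10000 / total of the cell). Reversed, 100.0% of 68606039 non-zero values lay within 0.01 of whole UMIs. Summed recovered UMIs therefore replaced the planned means.

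Cells were clustered in scanpy 1.11.5 without Slc genes (2000 variable genes, 30 components, Leiden resolution 0.5) and named from fixed markers. Scrublet marked 38 cells, far under its expected rate of 6%, so doublets may remain; marked cells were left out. The ratio code was tested on simulated data. Named members were the most abundant, those of largest ratio per comparison, class or cluster, and listed ones; any others named were chosen after their values were seen. Members and lists were chosen with earlier results of these data known. Alternatives covered scaling, cell choice, thinning, minimum and fold.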

Additional observations from a re-analysis of the deposited data

How the results depend on the processing

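No called member changed its sign under the cell alternatives tried, and the scalings shift all members alike by too little to turn a 2-fold call. The balance of calls over the span did change: 49 higher and 37 lower became 42 and 46 with median-of-ratios and 43 and 46 with TMM scaling. In single classes, scaling moved some counts by more than 1.5 times, as given beside them. The counts over all members that moved that far did so through the minimum or the fold. With a fold of 3 the members higher at E14.5 than at E12.5 numbered 28. For E16.5 against E14.5, members higher numbered 9 with a minimum of 10, 37 with a fold of 1.5 and 6 with a fold of 3, and members lower numbered 18 with a minimum of 10 and 17 with a fold of 3. These follow from fewer members or a stricter or looser fold. Of 204 ratios of named genes, median-of-ratios scaling moved 125 and TMM scaling 144 by more than their counting interval, thinning 76, the mean over cells 44, leaving out E12.5 cells with Y-linked UMIs 22, using cells of any cluster 4 and mean natural logs 4. Leaving out cells with a barcode shared between libraries, chosen after seeing the data like the set without the 4 members that are no carriers, moved 0. No paired analysis was possible because each stage is 1 library, and no replicate could be left out. Counting error was at most 5.21% either side of levels of at least 20 CPM; the spread between animals was not measured.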

Other observations

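The small germ-cell-like cluster led by Gm26699, with 199 cells at E14.5 and 82 at E16.5, held Slc25a31 at 746 and 810 CPM, and Slc25a42 was among its leading genes.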
